A study of Mus musculus with 12 samples.

Results

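The PGC-1 coactivators, the oestrogen-related receptors (ERR) and the peroxisome proliferator-activated receptors (PPAR) are described here in mouse myocardium after infarction and prednisone. The 10 listed genes were taken by their symbols in the transcript table: Ppargc1a, Ppargc1b, Esrra, Esrrb, Esrrg, Ppara, Ppard, Rxra, Nrf1 and Tfam. They are 10 of 33641 symbols and 67 of 105129 transcript rows, and each was read both as the sum of its transcripts and transcript by transcript. The animals were 12 C57BL/6 males, wild type, and each of 4 groups held 3 of them: sham surgery with vehicle, sham surgery with prednisone, myocardial infarction (MI) with vehicle, and MI with prednisone. Prednisone is a synthetic glucocorticoid, given at 1 mg/kg into the peritoneum once a week, at lights-on, for 6 weeks. Dosing began 2 weeks after surgery in mice of about 10 weeks, and tissue was collected 24 hours after the last dose at about 16 weeks of age. No transgene, Cre or mutant allele is named in the labels. All 4 groups had surgery and weekly injections, and the region of the infarcted heart that was sampled is not given in the sources used here.

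PGC-1α and PGC-1β, the products of Ppargc1a and Ppargc1b, do not bind DNA themselves. They dock on nuclear receptors such as the ERRs and PPARs and recruit the machinery that raises transcription of genes for mitochondria and fatty acid use. PPARα and PPARδ bind DNA as partners of a retinoid X receptor (RXR) such as RXRα, while the ERRs need no known hormone and depend on coactivators. NRF1 is a transcription factor for respiratory chain genes and for Tfam, whose product packages mitochondrial DNA and helps start its transcription. The heart, which burns mostly fatty acids, relies on this network.

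Values are TPM (transcript abundance corrected for transcript length and given as a share of each library), and the read depth behind them is unknown. Between 11690 and 14307 genes per library reached 1 TPM, and mitochondrially encoded RNA took 21.6% to 42.0% of all TPM. Replicate 3 of MI vehicle stood apart. Its genes differed from their sham vehicle means in log2(TPM + 1) by a median of 0.74. Its lowest correlation with a library of its own group was 0.89. In the 3 MI prednisone libraries the difference of genes from their sham vehicle means fell with transcript length. Spearman rho across genes ran from -0.41 to -0.27, genes not being independent. It ran from -0.12 to 0.24 in the other 9 libraries, which include the 3 sham vehicle libraries that gave those means. The median log2 change of all 13158 genes tested was 0.39 for MI against sham with vehicle and -0.06 with prednisone. It was -0.41 for prednisone against vehicle after MI, 0.07 after sham surgery and -0.48 for the difference between those effects, so each change below is to be read against its own median. With libraries rescaled to a common median (median-ratio rescaling), the calls for prednisone in MI went from 329 higher and 4588 lower to 1899 higher and 1883 lower. Those for MI with vehicle went from 1981 and 119 to 500 and 488, those for MI with prednisone from 359 and 1854 to 1538 and 1881, and those for the interaction from 71 and 2726 to 678 and 662. The 8 cardiomyocyte markers were all detected and summed to 15125 to 24293 TPM per library. In bulk tissue, fewer cells of a type and less RNA per cell cannot be told apart.

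Promoter windows from RefSeq (GRCm38.p6) are shown for the genes whose levels or start sites the results turn on. Each runs 5′ to 3′ from 250 bases before an annotated RefSeq start to 50 bases after it. The capitals mark those 50 bases. Transcripts of the table can begin elsewhere in a window: Esrrg-204 and Ppara-206 begin in lower-case letters. The Ppargc1a window (chr5:51567676-51567975, minus strand) belongs to the distant upstream start. The upstream Esrrg window is chr1:187608756-187609055 and the downstream one chr1:187997577-187997876, both on the plus strand. That of Ppara is chr15:85735526-85735825 on the plus strand, and that of Esrra is chr19:6921759-6922058 on the minus strand.
Ppargc1a upstream start: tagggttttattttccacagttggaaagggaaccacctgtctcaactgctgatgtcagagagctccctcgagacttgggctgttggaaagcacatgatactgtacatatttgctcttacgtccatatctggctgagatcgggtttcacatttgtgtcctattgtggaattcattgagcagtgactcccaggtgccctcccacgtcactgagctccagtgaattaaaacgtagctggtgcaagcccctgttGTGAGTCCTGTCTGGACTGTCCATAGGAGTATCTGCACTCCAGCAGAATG
Esrrg upstream start: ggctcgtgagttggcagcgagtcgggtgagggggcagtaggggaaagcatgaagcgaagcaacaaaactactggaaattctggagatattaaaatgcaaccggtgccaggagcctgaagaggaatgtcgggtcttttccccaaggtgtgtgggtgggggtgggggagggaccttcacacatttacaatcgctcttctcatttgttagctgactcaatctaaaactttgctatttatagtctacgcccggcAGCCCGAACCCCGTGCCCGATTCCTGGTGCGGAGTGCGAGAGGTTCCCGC
Esrrg downstream start: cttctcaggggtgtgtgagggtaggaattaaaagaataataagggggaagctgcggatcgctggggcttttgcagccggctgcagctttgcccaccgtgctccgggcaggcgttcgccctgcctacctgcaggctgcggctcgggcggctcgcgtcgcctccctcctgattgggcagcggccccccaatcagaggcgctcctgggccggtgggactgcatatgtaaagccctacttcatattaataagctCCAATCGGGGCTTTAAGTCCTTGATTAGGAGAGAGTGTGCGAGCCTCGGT
Ppara: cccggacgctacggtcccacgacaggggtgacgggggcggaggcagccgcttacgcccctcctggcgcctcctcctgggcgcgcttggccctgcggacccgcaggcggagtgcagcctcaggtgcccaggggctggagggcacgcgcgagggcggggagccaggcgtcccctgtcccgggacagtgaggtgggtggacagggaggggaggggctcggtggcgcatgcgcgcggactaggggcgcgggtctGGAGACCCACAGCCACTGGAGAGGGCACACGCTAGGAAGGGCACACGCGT
Esrra: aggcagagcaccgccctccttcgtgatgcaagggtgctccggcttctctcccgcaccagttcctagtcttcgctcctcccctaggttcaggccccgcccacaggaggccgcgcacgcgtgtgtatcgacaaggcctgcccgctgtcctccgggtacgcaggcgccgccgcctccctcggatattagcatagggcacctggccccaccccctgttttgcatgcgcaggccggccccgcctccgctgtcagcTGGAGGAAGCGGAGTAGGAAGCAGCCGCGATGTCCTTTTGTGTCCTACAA
The 15 windows of 9 of the 10 genes in the RefSeq table were searched on both strands for 6 motifs. These were the ERR element TNAAGGTCA (in 1.28% of the 32851 windows searched), the NRF1 core TGCGCATGC (1.52%), the ETS site CCGGAAGTG (2.03%), the E-box CACGTG (7.15%), the glucocorticoid element ACANNNTGT (6.85%) and the AGGTCA repeat spaced by 1 base that PPAR-RXR pairs bind (0.0396%). A single match was found, the NRF1 core in the Esrra window on the reverse strand, read there as GCATGCGCA and starting 34 bases before the start (position -34). A match is only letters, and windows without a match lack only these letters.

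Per length, the 10 genes differed widely in level in the sham vehicle hearts. Esrra was highest at 69.5 TPM, followed by Tfam (27.3), Ppargc1a (16.0), Rxra (14.3), Ppara (9.77), Ppard (9.10), Esrrg (9.02), Esrrb (6.40), Ppargc1b (4.95) and Nrf1 (4.19), each a mean of 3 mice. The ranges of neighbouring genes overlapped for Ppargc1a with Rxra, Ppara with Ppard, and Ppard with Esrrg, and not for the other neighbours. All 10 genes passed the filter of at least 1 TPM in at least 3 libraries.

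**Figure D1:**
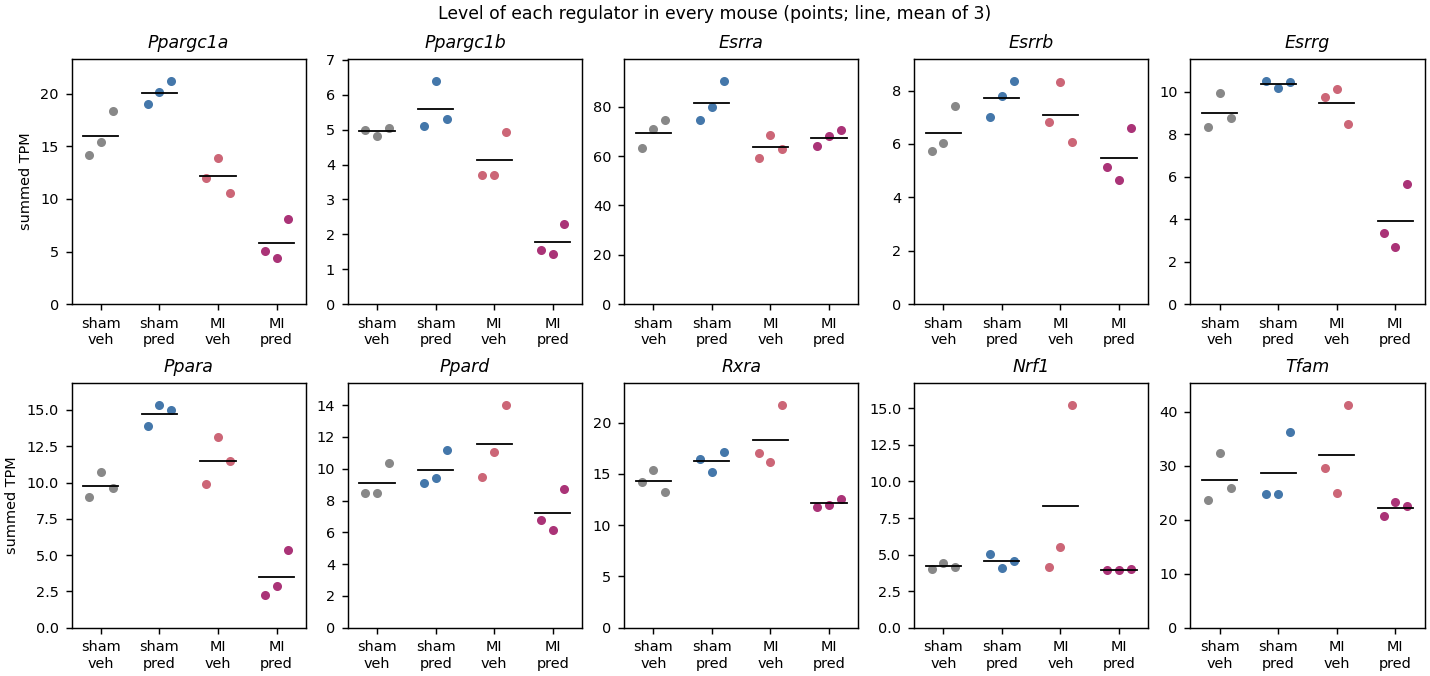
Summed TPM (y axis, linear from 0) of each of the 10 regulators in the 12 mice, by group on the x axis; points are mice and lines are means of 3. Ppara in the MI prednisone mice (2.25 to 5.38 TPM) lies below every other mouse, while Esrra in the same mice (63.9 to 70.5 TPM) lies within the range of MI vehicle and sham vehicle together.

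The coactivators were lowest in the infarcted hearts of prednisone mice. Ppargc1a (ENSMUSG00000029167.13, chr5:51454250-51567726, minus strand) stood at 14.2, 15.4 and 18.3 TPM with sham vehicle and 19.0, 20.1 and 21.2 TPM with sham prednisone. It stood at 11.99, 13.8 and 10.6 TPM with MI vehicle and 5.00, 4.39 and 8.08 TPM with MI prednisone. The 3 MI prednisone mice were below all 9 others. The group means were 16.0 ± 2.11, 20.1 ± 1.08, 12.1 ± 1.62 and 5.82 ± 1.98 TPM (SD, n = 3 each). Within prednisone, Ppargc1a fell by 1.66 on the log2 scale after MI (SE 0.19, limma adjusted p = 0.00116). Within MI it fell by 0.98 with prednisone (SE 0.19, adjusted p = 0.00338). Both comparisons use the same 3 MI prednisone mice.

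Ppargc1b, the gene of the second coactivator, had 4.99, 4.82 and 5.05 TPM with sham vehicle, 5.09, 6.39 and 5.30 with sham prednisone, 3.72, 3.71 and 4.95 with MI vehicle, and 1.54, 1.45 and 2.31 TPM with MI prednisone. Again no MI prednisone mouse reached the level of any other mouse. The log2 change was -1.26 for MI against sham with prednisone (SE 0.16, limma adjusted p = 0.00127) and -0.89 for prednisone against vehicle after MI (SE 0.16, adjusted p = 0.00249).

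The 3 oestrogen-related receptors differed from each other. Esrrg (ENSMUSG00000026610.13, chr1:187608791-188214885), which encodes ERRγ, a receptor abundant in tissues of high oxidative demand, had 8.34, 9.97 and 8.76 TPM with sham vehicle, 10.5, 10.2 and 10.5 with sham prednisone, 9.77, 10.1 and 8.48 with MI vehicle, and 3.33, 2.72 and 5.64 TPM with MI prednisone. The MI prednisone mice again did not overlap with any group. Esrrg fell by 1.26 after MI among prednisone mice (SE 0.19, limma adjusted p = 0.00216) and by 1.14 with prednisone among MI mice (SE 0.19, adjusted p = 0.00182), on the log2 scale.

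Esrra (ENSMUSG00000024955.14, chr19:6910977-6921813, minus strand), the gene of ERRα, the main ERR of heart muscle by level here, had 63.3, 70.9 and 74.4 TPM with sham vehicle and 74.6, 79.8 and 90.2 TPM with sham prednisone. It had 59.0, 68.7 and 62.9 TPM with MI vehicle and 63.9, 67.9 and 70.5 TPM with MI prednisone. The 2 MI groups overlapped, and the change with prednisone in MI was 0.09 (SE 0.11, limma adjusted p = 0.534), which lay 0.49 above the median of all genes. After median-ratio rescaling it was 0.54 with an adjusted p of 0.0272, so that this scaling called Esrra higher. Esrrb, the gene of ERRβ, ranged from 4.64 to 8.34 TPM over all 12 mice and passed the test in no comparison. Its MI prednisone mice (4.64 to 6.59 TPM) lay below the sham prednisone mice (7.00 to 8.34 TPM). The log2 change there was -0.44 (SE 0.16, adjusted p = 0.081), and it was called without MI vehicle replicate 3 (-0.44, adjusted p = 0.0349) or MI prednisone replicate 3 (-0.56, adjusted p = 0.0364).

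Among the PPARs and their partner Rxra, Ppara had the largest change of the 10 genes in every comparison except MI against sham with vehicle. Ppara (ENSMUSG00000022383.13, chr15:85734983-85802819), which encodes the PPAR that drives fatty acid oxidation in heart and liver, stood at 8.98, 10.7 and 9.62 TPM with sham vehicle and at 13.9, 15.3 and 15.0 TPM with sham prednisone. It stood at 9.87, 13.2 and 11.5 TPM with MI vehicle and at 2.25, 2.85 and 5.38 TPM with MI prednisone. The highest MI prednisone mouse was thus below the lowest of the 9 other mice. The log2 change was -1.87 for MI against sham with prednisone (SE 0.21, limma adjusted p = 0.00117) and -1.53 for prednisone against vehicle in MI (SE 0.21, adjusted p = 0.00105). In the sham hearts the 2 treatments did not overlap either, with prednisone higher by 0.55 (SE 0.21), but the adjusted p was 1.00.

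Rxra, the gene of RXRα, an RXR partner of the PPARs, stood at 14.3, 15.4 and 13.3 TPM with sham vehicle, at 16.4, 15.1 and 17.1 with sham prednisone, at 17.1, 16.1 and 21.7 with MI vehicle, and at 11.8 to 12.6 TPM with MI prednisone. The MI prednisone mice were the lowest here too. Rxra fell by 0.55 on the log2 scale with prednisone in MI (SE 0.12, limma adjusted p = 0.00695), which is 0.14 below the median of all genes. It was 0.39 lower in MI than in sham with prednisone (change -0.39, adjusted p = 0.0516), just outside the threshold. There it was called lower after median-ratio rescaling (-0.29, adjusted p = 0.0396) and not after length correction (-0.04, adjusted p = 0.779). Ppard, the gene of the more widely expressed PPARδ, had 8.48, 8.47 and 10.3 TPM with sham vehicle, 9.12, 9.41 and 11.2 with sham prednisone, 9.49, 11.1 and 14.0 with MI vehicle, and 6.80, 6.16 and 8.75 TPM with MI prednisone. The MI prednisone mice lay below the MI vehicle mice and overlapped with sham vehicle. It fell by 0.60 with prednisone in MI (SE 0.17, limma adjusted p = 0.0175), 0.19 below the all-gene median. Leaving out MI prednisone replicate 1 or 2 took it to adjusted p = 0.0585 and 0.0633.

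The 2 mitochondrial regulators downstream, Nrf1 and Tfam, passed the test in no comparison. Nrf1 had 4.03 to 4.40 TPM with sham vehicle, 4.08 to 5.07 with sham prednisone and 3.93 to 4.02 with MI prednisone. With MI vehicle it had 4.19, 5.49 and 15.2 TPM, the last value being the replicate that stood apart. The log2 change for prednisone in MI was -0.72 with that mouse (limma adjusted p = 0.0981) and -0.22 without it, and for MI against sham with vehicle 0.66 and 0.16. Without MI vehicle replicate 1 instead, Nrf1 was called in both (-1.04, adjusted p = 0.0166, and 0.98, adjusted p = 0.0272). Tfam ranged from 20.7 to 23.4 TPM with MI prednisone and from 25.0 to 41.3 TPM with MI vehicle, a change of -0.48 (SE 0.20, adjusted p = 0.079), close to the all-gene median. Without MI vehicle replicate 2 it was -0.63 (adjusted p = 0.0361), and without MI vehicle replicate 3 it was -0.28 (adjusted p = 0.256).

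The comparisons of MI with sham address the effect of infarction under each treatment. With vehicle, none of the 10 passed the limma test (1 had an unadjusted p under 0.05), where 15.1% of all genes were called higher and 0.904% lower. Ppargc1b was called lower in that comparison after median-ratio rescaling (-0.58, adjusted p = 0.0449) and after length correction (-0.62, adjusted p = 0.0298), in which each library's trend of deviations with log transcript length was subtracted. The level of the trend was subtracted too, so length correction also recentred the libraries. The all-gene median became 0.02 here, -0.01 for prednisone in MI and -0.009 for the interaction. For MI against sham with vehicle, 3.72% of all genes were called lower after rescaling and 3.76% after length correction. With prednisone, Ppargc1a, Ppargc1b, Esrrg and Ppara were lower, 4 of 10, against 14.1% of all genes called lower and 2.73% higher. Without MI vehicle replicate 3, 7 of 10 were called, with Esrrb, Ppard and Rxra added, against 23.6% of all genes called lower in that fit. Ppargc1a, Ppargc1b, Esrrg and Ppara were also called lower after median-ratio rescaling and after length correction, and Rxra after the former only. Of all genes, 14.3% were called lower after rescaling and 8.37% after length correction.

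For prednisone against vehicle within the infarcted hearts, 6 of the 10 were lower, those 4 with Ppard and Rxra, against 34.9% of all genes called lower and 2.5% higher. This count depended on the scale. Rescaled by median ratio, Ppara (-1.13, limma adjusted p = 0.0068), Esrrg (-0.74, adjusted p = 0.0383) and Ppargc1b (-0.55, adjusted p = 0.0216) were called lower and Esrra higher, while Ppargc1a was at -0.57 (adjusted p = 0.11). With the length correction only Ppara was called (-1.09, adjusted p = 0.0117). Of all genes, 14.4% were called lower and 14.5% higher after rescaling, and 9.03% lower and 8.35% higher after length correction. The TPM-weighted transcript lengths were 4513 bases for Ppargc1a, 4206 for Esrrg, 2689 for Ppara and 1996 for Esrra, beside a median of 2321 over the genes with a length.

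In sham hearts prednisone changed none of the 10 by the limma test (1 at an unadjusted p under 0.05), and 0.0532% of all genes were called higher and 0.0608% lower. The interaction, which asks whether the prednisone effect differed between infarcted and sham hearts, was called for 5 genes, all in the negative direction, against 20.7% of all genes negative and 0.54% positive. They were Ppara, Esrrg, Ppargc1a, Ppargc1b and Rxra. Only Ppara was called in the interaction after median-ratio rescaling (-1.60, adjusted p = 0.0227) and after length correction (-1.55, adjusted p = 0.0355). Of all genes, 5.05% and 1.52% were called negative there. The comparisons share groups, so their counts are not independent of each other.

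**Figure D2:**
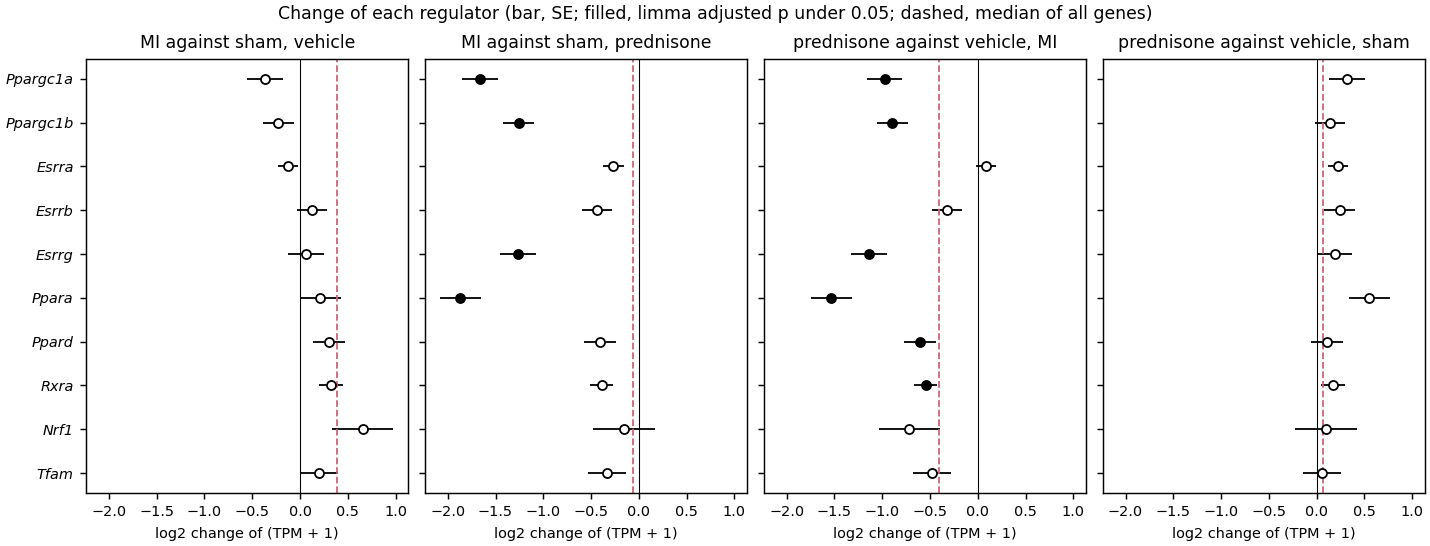
Log2 change of TPM + 1 (x axis) of each regulator (y axis) in 4 comparisons; points are limma estimates with SE bars, filled where the adjusted p is under 0.05, and the dashed line is the median of all 13158 genes. Ppara lies farthest to the left in both comparisons that hold the MI prednisone mice (-1.87 and -1.53), and no point is filled in the vehicle and sham panels.

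At transcript level, 28 of the 67 rows passed the filter, and 63 of the 67 had their identifier in GENCODE M21. For MI against sham with vehicle none of the 28 was called by limma (3 at an unadjusted p under 0.05), where 2.66% of all transcripts were higher and 0.184% lower. With prednisone 8 were lower, against 15.6% lower and 6.75% higher among all. Prednisone in MI gave 9 lower, against 27.1% lower and 5.92% higher. In sham hearts none was called (2 at an unadjusted p under 0.05), against 0.0288% higher and 0.0252% lower, and in the interaction 7 were negative, against 15.8% negative and 2.87% positive.

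The sum for Ppargc1a hid transcripts that behaved differently. Its most abundant transcript, Ppargc1a-203, has 13 exons, 6464 bases and a 3′ untranslated region of 3933 bases. It had 7.60, 7.58 and 8.44 TPM with sham vehicle, 8.98, 8.87 and 8.41 with sham prednisone, 6.06, 6.42 and 4.80 with MI vehicle, and 4.90, 4.19 and 7.67 TPM with MI prednisone. The 2 MI groups overlapped, and the change with prednisone in MI was -0.07 (limma adjusted p = 0.81). Against sham prednisone the MI prednisone mice were lower by a log2 change of -0.60 (adjusted p = 0.0393), but -0.20 and adjusted p = 0.519 after length correction.

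The next most abundant transcript, Ppargc1a-201, is annotated as a target of nonsense-mediated decay and has 3041 bases. It had 3.26 to 4.62 TPM with sham vehicle, 5.22 to 6.26 with sham prednisone and 1.76 to 3.82 with MI vehicle, and was listed at 0 in all 3 MI prednisone libraries. A protein-coding transcript of 2754 bases, Ppargc1a-205, likewise had 1.45 to 2.95 TPM in the 9 other libraries and was listed at 0 in those 3. Both were called lower for prednisone in MI (limma adjusted p = 0.000266 and 0.00043), and also with median-ratio rescaling and with length correction. Ppargc1a-203 accordingly made up 94.9% to 97.9% of the gene's TPM in MI prednisone and 39.8% to 53.5% in the other 3 groups. These transcripts share most of the gene, so their TPM rest on how reads were divided among them, and a listed 0 can be a failed estimate. Ppargc1a-205 was chosen for mention after its values were seen.

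Ppargc1a transcripts also differ in where they start. Ppargc1a-202 and Ppargc1a-204 begin at the upstream start shown above, 13804 bases before the start of Ppargc1a-203. Their summed level was 1.28, 1.49 and 3.77 TPM with sham vehicle, 2.10, 3.00 and 4.07 with sham prednisone, 0.657, 3.00 and 1.09 with MI vehicle, and 0.106, 0.197 and 0.412 TPM with MI prednisone. The 3 transcripts from the downstream start summed to 12.9 to 14.5, 16.9 to 17.1, 9.51 to 11.3 and 4.19 to 7.67 TPM in the same order. Both sums were lowest in the MI prednisone mice with no overlap. In those mice the downstream sum was Ppargc1a-203 alone, and that transcript overlapped with MI vehicle. The gap of the downstream sum within MI thus rests on Ppargc1a-201 and Ppargc1a-205 being listed at 0, which can be failed estimates. Their means with MI vehicle were 2.60 and 2.19 TPM, so the fall of the summed gene within MI rests on them in part. The grouping by start was made after values were seen and has no test.

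Transcripts of Esrrg were likewise grouped into an upstream and a downstream region of starts. Esrrg-203 and Esrrg-204 begin in the upstream window shown above. Esrrg-205, also counted as upstream, begins beyond its end, at chr1:187609696. The 3 upstream transcripts summed to 7.64, 7.19 and 6.65 TPM with MI vehicle and 0.822, 0.991 and 2.41 TPM with MI prednisone, with no overlap. The 2 downstream ones summed to 2.13, 2.94 and 1.83 TPM and to 2.51, 1.73 and 3.23 TPM, and overlapped. This grouping too was made after values were seen, for Ppargc1a and Esrrg alone, and has no test. Esrrg-203, its most abundant transcript, begins in the upstream window and has 4833 bases. It had 5.14, 5.64 and 5.46 TPM with sham vehicle, 6.88, 5.33 and 6.56 with sham prednisone, 5.37, 4.76 and 4.25 with MI vehicle, and 1.66 TPM in a single MI prednisone mouse, being listed at 0 in the other two. It was called lower for prednisone in MI (limma adjusted p = 0.00113) and also after median-ratio rescaling and length correction (adjusted p = 0.0059 and 0.00795). The other upstream transcripts, Esrrg-205 (adjusted p = 0.207) and Esrrg-204 (adjusted p = 0.208), did not pass. Esrrg-201 has 5293 bases and begins at the downstream start, 389036 bases beyond the gene's first annotated start. It had 2.13, 1.41 and 1.83 TPM with MI vehicle and 2.51, 1.73 and 3.23 TPM with MI prednisone. Its change was 0.31 (adjusted p = 0.345), and 0.88 with adjusted p = 0.0233 after length correction.

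**Figure D3:**
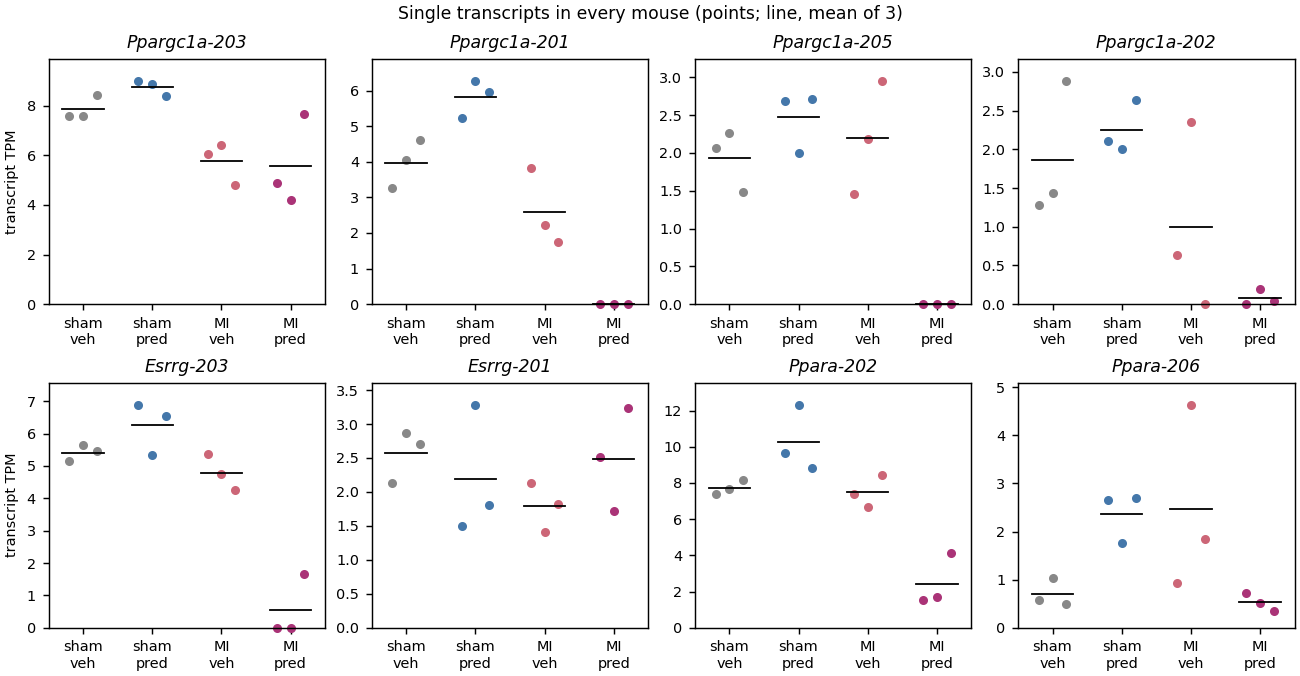
TPM (y axis, linear from 0) of 8 transcripts of Ppargc1a, Esrrg and Ppara in the 12 mice, by group on the x axis; points are mice and lines are means of 3. Ppargc1a-201 and Ppargc1a-205 are listed at 0 in the 3 MI prednisone mice, while Ppargc1a-203 (4.19 to 7.67 TPM) and Esrrg-201 (1.73 to 3.23 TPM) overlap with MI vehicle there.

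Transcripts of Ppara, Ppargc1b, Rxra and Esrra were followed in the same way. Ppara-202 had 6.67 to 8.43 TPM with MI vehicle and 1.52, 1.67 and 4.12 TPM with MI prednisone, a log2 change of -1.38 (limma adjusted p = 0.00228). Ppara-206, a processed transcript of 367 bases, was 0.939 to 4.63 TPM with MI vehicle and 0.349 to 0.720 TPM with MI prednisone, and also fell (adjusted p = 0.0346). Ppargc1b-202 carried 81.7% to 100.0% of its gene in every library and fell with it (-0.84, adjusted p = 0.00519). Rxra-201 carried 89.5% to 100.0% and fell by 0.49 on the log2 scale (adjusted p = 0.0156). Of Esrra, the main transcript Esrra-201 stood at 46.5 to 53.6 TPM with MI vehicle and 56.1 to 61.5 TPM with MI prednisone, ranges that did not overlap (0.23, adjusted p = 0.106), and it was called higher after median-ratio rescaling (0.68) and length correction (0.60). The shorter Esrra-205 went the other way, from 3.10 to 8.83 TPM down to 0.903 to 2.39 TPM (-1.37, adjusted p = 0.0262). After median-ratio rescaling Ppara-202 was still called lower (adjusted p = 0.0204), while Ppara-206 (adjusted p = 0.0941), Ppargc1b-202 (0.0565), Rxra-201 (0.688) and Esrra-205 (0.081) were not called. Tfam was divided among transcripts unevenly from mouse to mouse: its share in Tfam-202 ran from 9.5% to 52.1%, while Tfam-201 held 17.8% to 26.6%.

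Across the 12 libraries, on the median-ratio-rescaled log2 scale, Ppargc1a followed Ppargc1b (Pearson r = 0.96), Esrrg (0.95), Ppara (0.92) and Rxra (0.89) more closely than Esrra (0.52) or Nrf1 (-0.22). These are descriptions over libraries that share groups and scaling. Among 8107 other genes averaging 5 TPM or more, those most like Ppargc1a were Mtus2 (r = 0.99), Zfp106 (0.99) and Entpd4 (0.99). Those most like Ppargc1b were 9130011E15Rik (0.98), Ssh2 (0.97) and Cyfip2 (0.97). Those most like Ppara were Srp54a (0.99), Lpgat1 (0.99) and Myocd (0.99), the last encoding a coactivator of muscle genes. Esrra was matched by a different set, Coq2 (0.98), Fndc5 (0.98) and Map7d1 (0.98).

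The cofactors, corepressors and signalling genes around PGC-1 were lower in part in the MI prednisone hearts. Of 30 genes tested, 12 were lower and none higher for MI against sham with prednisone (median -0.37 against -0.06 for all genes), where 14.1% of all genes were called lower. With prednisone in MI, 19 were lower and 1 higher (median -0.74 against -0.41, and 34.9% of all genes called lower). After median-ratio rescaling 13 were lower and 3 higher, against 14.4% and 14.5% of all genes. After length correction 6 were lower and 2 higher, against 9.03% and 8.35%. Gabpa, which encodes a DNA-binding subunit of the ETS factor NRF2/GABP, went from 14.6 to 19.6 TPM with MI vehicle to 5.57 to 7.22 TPM with MI prednisone and fell by 1.25 on the log2 scale (limma adjusted p = 0.000724). It was also called after median-ratio rescaling and after length correction. Ncor1, a corepressor of nuclear receptors, fell by 0.97 (adjusted p = 0.00393), and Prkaa2, a catalytic subunit of the energy sensor AMPK, by 0.83 (adjusted p = 0.0104). Nrip1, a corepressor, fell by 1.20 (adjusted p = 0.00775), and Sirt1, a deacetylase that acts on PGC-1α, by 0.74 (adjusted p = 0.0375; -0.39 and adjusted p = 0.0451 without MI vehicle replicate 3). Perm1, a muscle regulator induced by PGC-1 and ERR, was at -0.15 (adjusted p = 0.425) but fell by 0.63 for MI against sham with prednisone (adjusted p = 0.0129; -0.53 and not called rescaled). Pparg, the adipose PPAR, was at -0.11 (adjusted p = 0.836). The 1 gene that rose was Rxrg, another RXR, from 21.2 to 26.3 TPM up to 28.0 to 33.3 TPM (0.32, adjusted p = 0.042, but 0.24 and adjusted p = 0.10 without MI vehicle replicate 3). Rescaled it rose by 0.76 (adjusted p = 0.016). Its mean with sham vehicle was 34.7 TPM, beside 14.3 TPM for Rxra. After median-ratio rescaling Gabpa, Ncor1 and Nrip1 were still called lower for prednisone in MI, while Prkaa2 was at -0.42 (adjusted p = 0.27) and Sirt1 at -0.36 (adjusted p = 0.12).

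Targets of the PPARs in fatty acid use were already lower after MI with vehicle. Of 30 tested, 11 were lower and none higher there (median -0.30 against 0.39), where 0.904% of all genes were called lower. Without MI vehicle replicate 3, 4 were lower (0.397% of all genes), and after median-ratio rescaling 18 (3.72% of all genes). With prednisone, 20 were lower and none higher for MI against sham (median -0.39 against -0.06), where 14.1% of all genes were called lower. After median-ratio rescaling or length correction 7 were lower, against 14.3% and 8.37% of all genes. For prednisone in MI, 12 were lower and none higher, near the 34.9% of all genes called lower, with a median of -0.19 that lay above the all-gene median of -0.41. After median-ratio rescaling the same comparison had 4 higher and none lower, against 14.5% and 14.4% of all genes. After length correction it had 2 higher and 1 lower, against 8.35% and 9.03%. The list median was then 0.26 and 0.23, so its sign depended on the scale. Cd36, the fatty acid transporter, went from 560 to 578 TPM with MI vehicle to 210 to 363 TPM with MI prednisone and fell by 1.06 on the log2 scale (limma adjusted p = 0.00124), or -0.60 with adjusted p = 0.0655 rescaled. Acadm, an acyl-CoA dehydrogenase, fell by 0.61 (adjusted p = 0.00717), Pdk4, a brake on glucose oxidation, by 1.11 (adjusted p = 0.0455, or 0.083 without MI vehicle replicate 3), and Ucp3, a mitochondrial carrier, by 1.20 (adjusted p = 0.0103). Cpt1b, which admits fatty acids to mitochondria, was at -0.18 (adjusted p = 0.209), Plin5, a lipid droplet protein, at 0.11 (adjusted p = 0.488), and Angptl4, a lipoprotein lipase inhibitor, at -0.41 (adjusted p = 0.516). After median-ratio rescaling none of Acadm (-0.15), Pdk4 (-0.66) and Ucp3 (-0.77) was called.

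Targets of ERR and PGC-1 in the citric acid cycle and respiratory chain split in both directions. For MI against sham with vehicle none of 30 was called by limma (11 at an unadjusted p under 0.05), against 15.1% of all genes higher and 0.904% lower. After median-ratio rescaling 10 were lower, against 3.72% of all genes. With prednisone 13 were lower and 2 higher, against 14.1% and 2.73% of all genes (6 and 1 rescaled, against 14.3% and 11.7%). With prednisone in MI, 6 were lower and 7 higher, against 34.9% and 2.5% of all genes, with a median of 0.11 against -0.41. After median-ratio rescaling none was lower and 16 higher, against 14.4% and 14.5% of all genes. After length correction none was lower and 8 higher, against 9.03% and 8.35%. Mfn2, which fuses mitochondria, fell by 0.62 (limma adjusted p = 0.00703; -0.17 rescaled). Atp5b, a subunit of ATP synthase, rose by 0.65 (adjusted p = 0.00392), from 2353 to 2579 TPM up to 3244 to 4666 TPM. Cs (-0.22), Idh3a (-0.26), Cycs (0.25), Uqcrc1 (0.12), Slc25a4 (0.26) and Ckmt2 (0.18), enzymes, electron carriers and transporters of the same pathways, did not pass in that comparison, and their adjusted p ran from 0.0716 to 0.322. Cs fell by 0.48 and Idh3a by 0.52 for MI against sham with prednisone (adjusted p = 0.00893 and 0.00918), and neither was called there after median-ratio rescaling (-0.38 and -0.41).

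Genes that maintain and transcribe mitochondrial DNA, the partners of Tfam, changed little as deposited. Of 24 listed, 23 were tested. For MI against sham with prednisone 3 were lower and 1 higher, against 14.1% and 2.73% of all genes. For prednisone in MI 2 were lower and 1 higher, against 34.9% and 2.5%. Median-ratio rescaling gave 9 higher and none lower in the latter, against 14.5% and 14.4% of all genes. Polrmt, the mitochondrial RNA polymerase, rose by 0.81 for MI against sham with prednisone (limma adjusted p = 0.00765), while Tfb2m, its initiation factor, fell by 0.52 (adjusted p = 0.0414) and Twnk, the helicase, by 0.47 (adjusted p = 0.0339). Polg, Ssbp1, Lonp1, Top1mt and Tfb1m had changes from -0.32 to 0.29 in that comparison without a call. Polrmt (0.92) and also Polg (0.40) were called higher there after median-ratio rescaling, and Tfb2m (-0.42) and Twnk (-0.38) were not called.

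**Figure D4:**
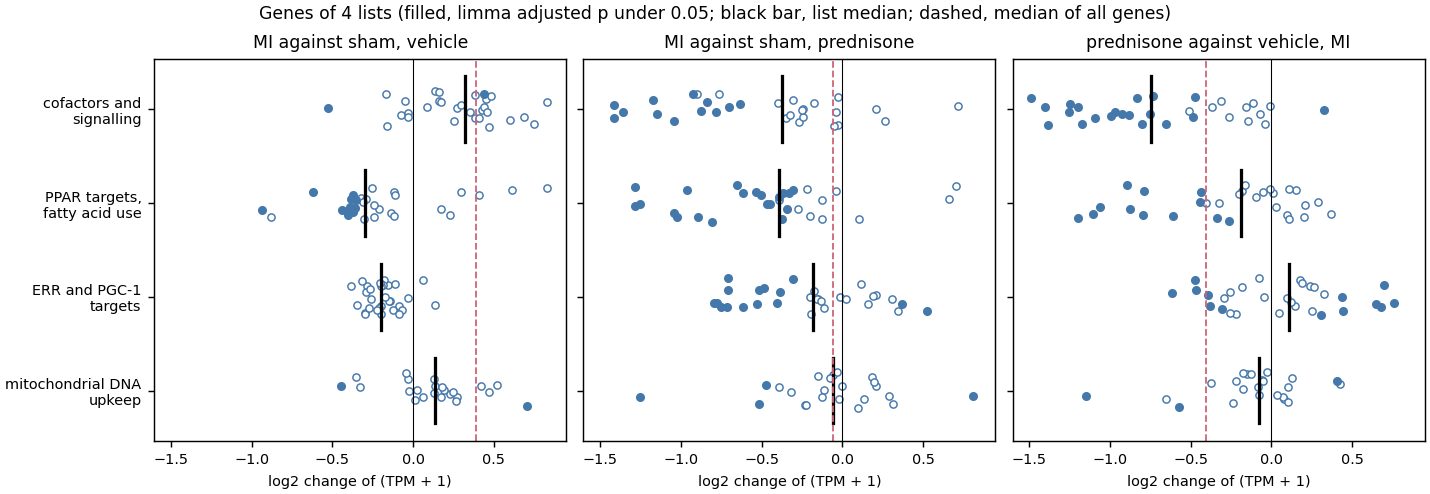
Log2 change of TPM + 1 (x axis) of single genes in 4 lists (y axis) in 3 comparisons; filled points have a limma adjusted p under 0.05, black bars are list medians and dashed lines the median of all genes. For prednisone in MI the cofactor list has its median at -0.74, left of the dashed line at -0.41, and the ERR and PGC-1 target list at 0.11, right of it.

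Markers of some other cells moved with these comparisons, and others did not. The 6 endothelial markers summed to 290 to 373 TPM with MI vehicle and 278 to 384 TPM with MI prednisone. Of these, 1 was called higher and 2 lower for prednisone in MI. Of 5 mural markers 2 were called lower there. None of 5 erythroid markers was called in any comparison. Only 1 of 4 skeletal muscle markers was tested, and it was called higher for prednisone in MI (0.38). The 8 fibroblast markers summed to 934 to 1269 TPM with MI vehicle and 343 to 595 TPM with MI prednisone, beside 392 to 529 TPM with sham vehicle. All 8 were higher for MI against sham with vehicle, against 15.1% of all genes. For prednisone in MI 7 were lower, against 34.9% of all genes. The 6 leukocyte markers summed to 149 to 303 TPM with MI vehicle, 82.4 to 160 TPM with MI prednisone and 77.8 to 104 TPM with sham vehicle. Cardiomyocyte markers summed to 15125 to 18998 TPM with MI vehicle and 19192 to 21018 TPM with MI prednisone, the reverse order of Ppara and Ppargc1a. With sham prednisone they summed to 21327 to 24293 TPM, above MI prednisone as Ppara and Ppargc1a were, and 3 of the 8 were called lower and none higher for MI against sham with prednisone (median -0.37). Of all genes, 14.1% were called lower there. The 4 atrial markers summed to 845 to 2487 TPM with sham vehicle, 1982 to 2686 with sham prednisone, 2802 to 4106 with MI vehicle and 4335 to 6173 TPM with MI prednisone. Of these 4, 3 were called higher for prednisone in MI (median 2.01), against 2.5% of all genes. For MI against sham with vehicle 1 was called higher and none lower, with a median of -0.78 although the sum rose. With prednisone 1 was called higher and none lower (median 0.75). Adipocyte markers, which accompany Pparg, summed to 4.57 to 493 TPM with MI vehicle and 69.2 to 236 TPM with MI prednisone. The 2 brown adipocyte markers summed to 17.7 to 23.7 TPM with sham prednisone and 51.0 to 197 TPM with MI prednisone, with 1 called higher (median 2.80). No marker of these lists was at 0 in all libraries of a group, and the part of cell makeup in the changes was not tested.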

How the data were processed

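The authors deposited TPM per transcript in a single table, each column summing to 1000000. Trimmomatic, HISAT2, kallisto and mm10 are named in the submitters' processing notes, with no version, role or annotation release. Stranded mRNA libraries were made from column-purified RNA, per the labels' protocols. TPM holds no depth, so precision comes from the 3 mice of each group, which the titles number 1 to 3 and the protocol describes as tissue from each mouse. P-values set group differences against the spread between these mice, pooled over all 4 groups. MI vehicle replicate 3 thus also enters comparisons that do not hold it. Without it, the genes called for MI against sham with prednisone went from 2213 to 3986.

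Transcripts were summed by symbol. Features with at least 1 TPM in at least 3 libraries were kept, and log2(TPM + 1) was fitted with limma 3.58.1 in R 4.3.3 (1 mean per group, variance trend, all 12 libraries), with Benjamini-Hochberg adjustment over all features and calls at an adjusted p under 0.05. Changes on this scale understate those of low genes. An exact permutation test of 3 against 3 cannot go below 0.1. The alternatives were median-ratio rescaling, no filter, no trend, a pseudocount of 0.1, the replicate number as a block, only the groups compared, removal of mitochondrial and globin rows, a length correction (loess, span 0.5, against GENCODE M21 lengths, given for 13124 of 13158 genes), the most abundant transcript, and leaving out each mouse. Genomic positions are GENCODE M21 (GRCm38), which held 94.65% of the table's identifiers.

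The genes, lists and tests were chosen with earlier results of these data known. Named were the 10 genes, their 2 most abundant transcripts, 8 fixed genes per list (one of them is not reported here) and, for 4 genes, the 3 with the highest Pearson r. Other transcripts named (Ppargc1a-202, Ppargc1a-204, Ppargc1a-205, Esrra-205, Esrrg-204 and Esrrg-205) were chosen after their values were seen. Promoter windows of chromosome 18 were not searched.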

Additional observations from a re-analysis of the deposited data

Results flagged for a closer look

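The effect of prednisone differed between infarcted and sham hearts for 5 of the 10 genes, by a test of the difference itself (limma interaction term, adjusted over all genes), where 20.7% of all genes were called negative. The interaction was -2.08 on the log2 scale for Ppara (SE 0.30, adjusted p = 0.00526), -1.32 for Esrrg (SE 0.26, adjusted p = 0.0106) and -1.30 for Ppargc1a (SE 0.26, adjusted p = 0.0109). It was -1.03 for Ppargc1b (SE 0.23, adjusted p = 0.0135) and -0.72 for Rxra (SE 0.17, adjusted p = 0.0186). For each of the 5, the prednisone mice were lower than all vehicle mice after MI, and their mean was higher than that of vehicle after sham surgery. The median interaction of all genes was -0.48, and relative to it the 5 values were -1.60, -0.85, -0.82, -0.56 and -0.24 in the same order. Ppara was the only 1 of the 5 still called after median-ratio rescaling (-1.60, adjusted p = 0.0227) and after length correction (-1.55, adjusted p = 0.0355). Of all genes, 5.05% and 1.52% were called negative there. In those settings the adjusted p was 0.123 and 0.281 for Esrrg, 0.161 and 0.342 for Ppargc1a, and 0.0876 and 0.282 for Ppargc1b. For Rxra it was 0.329 and 0.949, and the sign turned with length correction (0.0169).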

How the results depend on the processing

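Direction and side of the threshold held in 377 log2 changes recomputed under the alternatives that keep all mice, 12 passed the threshold that had not, 20 no longer passed and 31 changed sign. For MI against sham with vehicle, 1 gene was called after median-ratio rescaling and 1 after length correction. For prednisone in MI, 2 genes were called with only the 2 groups compared and 1 after length correction, and for transcripts 5 with median-ratio rescaling and 4 with only the 2 groups. For the interaction, 1 gene was called with median-ratio rescaling and 1 with length correction, and 4 transcripts with the former. Among all transcripts, 7452 of 27580 were called for prednisone in MI when rescaled, and 4213 of 27769 with only the 2 groups. In the rescaled interaction 3525 of 27580 were called. Signs turned for MI against sham with vehicle under median-ratio rescaling for Esrrb (-0.25), Esrrg (-0.33), Ppara (-0.19), Ppard (-0.10), Rxra (-0.0861) and Tfam (-0.22). They turned under length correction for Esrrb (-0.27), Esrrg (-0.33), Ppara (-0.18), Ppard (-0.0934), Rxra (-0.0551) and Tfam (-0.15). Without mitochondrial and globin rows Esrrb (-0.0912), Esrrg (-0.16), Ppara (-0.00918) and Tfam (-0.0324) turned, and for the most abundant transcript Esrrg (-0.15), Ppara (-0.0445) and Tfam (-0.0815). For prednisone in MI, Esrrb was 0.0633 with median-ratio rescaling and 0.27 with length correction, and Rxra 0.0759 with the latter. For prednisone in sham hearts, Tfam was -0.0289 with median-ratio rescaling and -0.017 without mitochondrial and globin rows, and the most abundant Nrf1 transcript -0.11, or 0.00824 for MI against sham with prednisone. In the interaction Esrra was 0.40 with median-ratio rescaling, 0.0161 without mitochondrial and globin rows and 0.27 with length correction, Esrrb 0.13 and Rxra 0.0169 with length correction. The cause was not tested. Leaving out each mouse in turn gave 0 to 2 genes and 0 to 3 transcripts called for MI against sham with vehicle, 4 to 7 genes and 6 to 10 transcripts with prednisone, 5 to 7 genes and 6 to 11 transcripts for prednisone in MI, none in sham hearts, and 4 to 7 genes and 6 to 9 transcripts in the interaction. For MI against sham with prednisone, 7 genes were called without MI vehicle replicate 3, where 23.6% of all genes were called lower, against 14.1% with all mice. Without that mouse 28.5% of all genes were called lower for prednisone in MI and 23.2% negative in the interaction. Shares for the other mice left out are not given here, so these ranges are not set against them. The call of Rxra in the interaction was lost without sham vehicle replicate 1 or 3 or sham prednisone replicate 3 (adjusted p up to 0.0567). Tfam in sham hearts ran from -0.12 to 0.18. Same-numbered mice did not deviate together (mean r of -0.37, -0.05, -0.25 and 0.0028 in the 4 comparisons). With the replicate block, 0, 5, 6, 0 and 6 genes and 0, 8, 9, 0 and 6 transcripts were called in the 5 comparisons. Of all 13158 genes, 1056, 1901, 4434, 7 and 2352 were called with it. Of all 27769 transcripts, 143, 5694, 8461, 5 and 4525 were called. The number of all genes called for MI against sham with vehicle went from 2100 to 988 with median-ratio rescaling, 1056 with the replicate block, 2 with only the 2 groups and 940 without MI vehicle replicate 3. That for prednisone in MI went from 4917 to 808 with only the 2 groups and 2281 with length correction, and that for the interaction from 2797 to 332. The interaction could not be fitted with only 2 groups. Depth is unknown, so no limit of detection can be given for the transcripts listed at 0.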
